A study of Mus musculus with 36 samples.

Results

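The matrix metalloproteases (Mmp), the ADAMTS proteases and their inhibitors (Timp) were followed across mouse bladder tumours and bladder tumour cell lines by RNA sequencing. The genes were chosen by symbol alone, as every row named Mmp, Adamts or Timp and a number, which gave 46 of the 21705 genes in the table: 23 Mmp, 19 Adamts and 4 Timp genes. The 36 libraries comprised 4 UPPL1541, 2 BBN963 and 4 MB49 tumours grown from those cell lines, 9 UPPL and 11 BBN primary tumours, and cultures of the UPPL1541, BBN963 and MB49 lines and of 3 lines named KT1044, KT1970 and KT1975. UPPL primary and UPPL1541 line-derived tumours were labelled untreated with the alleles Upk3a-CreERT2, p53f/f, Rosa26LSL-Luc and a further floxed allele, so that Cre recombinase is driven from the gene of the urothelial plaque protein uroplakin 3a. BBN primary tumours came from mice of genotype Ctrl given N-butyl-N-(4-hydroxybutyl)nitrosamine, a bladder carcinogen. BBN963 and MB49 line-derived tumours and all 6 cultures were labelled Ctrl and untreated, the UPPL1541 culture included. Each line-derived group rests on 1 line, neither the host mice nor any ages are given in the labels, and the labels do not say what KT stands for. Nothing in the labels says whether tumours of 1 line came from separate mice, so p-values measure the spread between these samples.

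Matrix metalloproteases are zinc-dependent enzymes that cleave collagens, proteoglycans and other proteins outside the cell. Most are secreted as inactive precursors, and the membrane-type enzymes stay on the cell surface, where Mmp14 with bound Timp2 activates the Mmp2 precursor. ADAMTS proteases cleave proteoglycans such as versican and aggrecan or trim procollagens, and Timp proteins block the active sites of metalloproteases. In carcinomas much of this protease expression comes from fibroblasts, macrophages and neutrophils around the tumour cells, while Mmp7 is typically made by epithelial cells.

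In the mouse genome, 10 of the Mmp genes lie side by side on chromosome 9, with no other protein-coding gene among them in the RefSeq annotation: Mmp13, Mmp12, Mmp1b, Mmp3, Mmp1a, Mmp10, Mmp8, Mmp27, Mmp20 and Mmp7. Promoters of this cluster are shown because Mmp13, Mmp12 and Mmp3 are among the members with the widest ranges below, whereas Mmp1a was listed at 0 in all 36 libraries. The 100 bases before an annotated start of 6 of these genes are given 5′ to 3′ from RefSeq (build GRCm38.p6, plus strand), with matches to TGANTCA, the letters bound by the AP-1 transcription factors, and to TATAAA, the TATA box, in capitals.
Mmp13 (chr9:7272414-7272513): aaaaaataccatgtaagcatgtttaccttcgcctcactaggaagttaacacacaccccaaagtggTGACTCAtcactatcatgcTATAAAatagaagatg
Mmp12 (chr9:7347274-7347373): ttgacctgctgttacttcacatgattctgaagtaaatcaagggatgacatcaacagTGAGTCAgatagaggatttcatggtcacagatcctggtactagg
Mmp3 (chr9:7445722-7445821): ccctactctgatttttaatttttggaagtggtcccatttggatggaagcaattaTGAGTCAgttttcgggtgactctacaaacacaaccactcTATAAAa
Mmp10 (chr9:7502242-7502341): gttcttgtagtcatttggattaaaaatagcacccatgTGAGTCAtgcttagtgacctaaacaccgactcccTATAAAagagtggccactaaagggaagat
Mmp7 (chr9:7691990-7692089): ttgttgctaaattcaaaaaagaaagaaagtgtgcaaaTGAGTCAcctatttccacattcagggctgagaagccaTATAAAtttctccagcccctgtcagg
Mmp1a (chr9:7464041-7464140): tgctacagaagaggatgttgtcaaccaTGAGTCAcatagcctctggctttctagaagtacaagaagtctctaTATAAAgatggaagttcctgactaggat
For Mmp12 and Mmp7, which have 2 annotated starts each, the start whose window held both motifs is shown, and the window of the other start held neither. The AP-1 letters began 35 bases before the start in Mmp13, 44 in Mmp12, 46 in Mmp3, 63 in Mmp10, 63 in Mmp7 and 73 in Mmp1a. A TATAAA match lay before the start in all of them but Mmp12, whose match lay past the start, outside the bases shown. Promoter windows of 300 bases, from 250 before to 50 after the start, were held for 32 of the 46 members. Searched on both strands, 8 of the 32 had both motifs in 1 window, and these 8 were all in the cluster of 10 on chromosome 9. The genes shown were picked from these 8, so that each holds both motifs was set in advance. In the same cluster, Mmp8 held TATAAA only and Mmp27 held neither. Over all 32851 windows of the genome, 7.81 percent held TGANTCA, 13.6 percent held TATAAA and 1.54 percent held both. A match describes letters only: Mmp1a held both motifs and was listed at 0 throughout.

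Values are RSEM gene estimates that the authors scaled to a common upper quartile, so that the 75th percentile of a library's values above 0 is about 1000 units. They are not divided by transcript length, so levels are compared between samples and not between genes. Libraries held 9.29 to 17.93 M reads (M, mega), and a value of 0 allows up to 3 reads, or 2.36 to 4.37 units, which covers counting error only. In tumour libraries the most frequent low value was 2 to 19 reads, so low tumour values are less certain than that. This low-value step was 19 reads in BBN963 tumour 1, 17 in UPPL1595, 15 in BBN962, 14 in UPPL1597 and 11 in MB49 tumour 1. Values at or near 0 are least certain in these tumours. Trp53, which is floxed in UPPL mice, lay between 30.4 and 158 units in UPPL primary tumours, 68.3 and 139 units in UPPL1541 line-derived tumours, and 795.5 and 2266 units in BBN primary tumours. The UPPL1541 culture held 50.4 units of Trp53, within the UPPL tumour range, against 1059 to 3017 in the other 5 cultures, which goes against its label of genotype Ctrl. The epithelial markers Krt5, Krt14, Krt8, Krt18, Epcam, Cdh1 and Trp63 summed to 258683 to 348257 units in UPPL1541, 383278 to 407878 in BBN963 and 16179 to 26237 in MB49 line-derived tumours. In the MB49 culture they summed to 7594 units, with Epcam and Trp63 listed at 0.

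Of the 46 genes, 42 reached 10 units in at least 1 library and 34 reached 100 units. Timp1, Timp2, Mmp14, Mmp15, Mmp28 and Adamts1 were above 0 in all 36 libraries. Mmp1a and Mmp21 were listed at 0 in all 36, and Mmp20 and Timp4 stayed under 10 units. Mmp1b was above 0 in 3 libraries and Adamts19 in 1. Exons of Mmp12 and Mmp1b overlap on opposite strands, as do those of Mmp7, Mmp19, Mmp24, Mmp28, Adamts7, Adamts8, Adamts9 and Timp4 with other genes. The kit marks strand, but whether counting used it is not given in the sources used here, so reads of these overlapping partners may not be told apart.

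**Figure D1:**
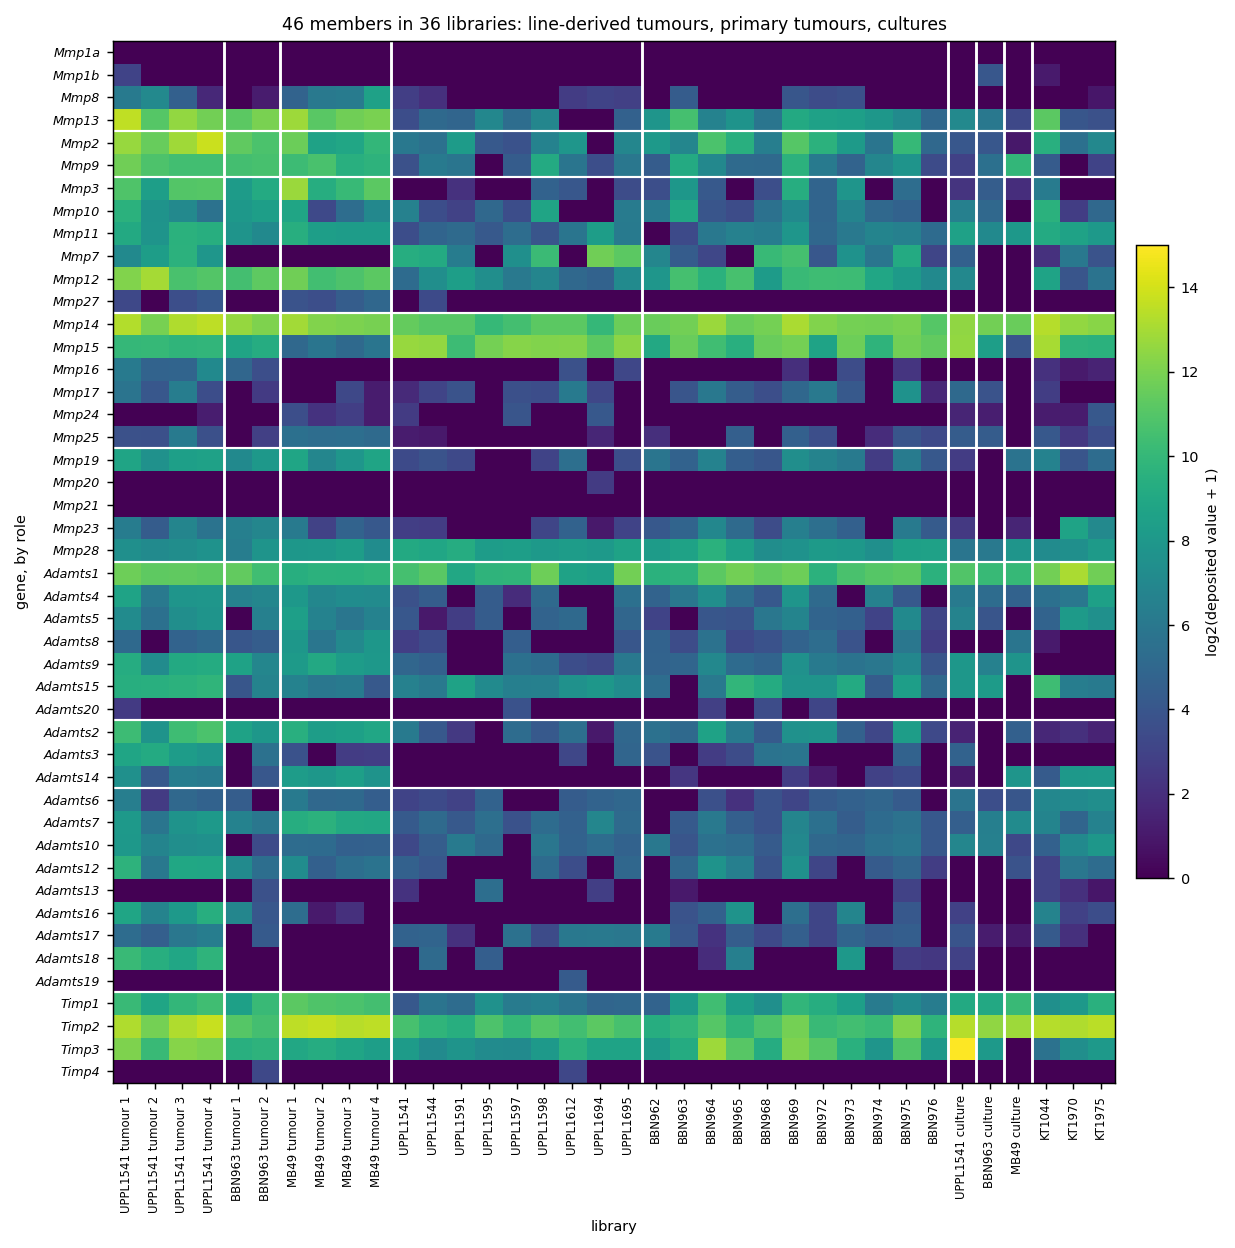
Levels of the 46 genes (rows, by role) in 36 libraries (columns), as log2(deposited value + 1); white lines separate roles and groups of libraries. Line-derived tumours are at the left, primary tumours in the middle and cultures at the right; Mmp1a and Mmp21 are at 0 in every column, and Timp3 reaches its highest level in the UPPL1541 culture.

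UPPL primary tumours had lower levels than BBN primary tumours of the inhibitors Timp1 and Timp3 and of 6 metalloproteases, among them the collagenase Mmp13, the elastase Mmp12 and the gelatinase Mmp2. Mmp15, a membrane-type enzyme, was the 1 member that was higher in UPPL. With limma on log2(value + 1), 1 of 29 members tested passed as higher and 8 passed as lower at an adjusted p of 0.05, and 17 members were under the filter on low values. Over all 12818 genes tested, 5.71 percent passed as higher and 12.8 percent as lower. The median log2 fold change was -1.21 over the 29 members and -0.19 over all genes tested. The 2 groups overlapped in every member tested, while 0.687 percent of all genes tested did not overlap. Of all calls, 30.9 percent were higher as deposited and 50.1 percent under quantile normalization. Without UPPL1595, UPPL1597 and BBN962, the primary tumours with low-value steps of 10 reads or more, 4 members passed, and the calls of Timp3, Mmp2 and Mmp15 were among those lost.

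Timp1, a secreted inhibitor of many metalloproteases, stood in UPPL tumours at 16.7 units at the lowest, 53.8 at the median and 192 at the highest, against 26.9 units at the lowest, 287 at the median and 1373 at the highest in BBN tumours. UPPL1694, UPPL1695, UPPL1541 and UPPL1591 were among the low ones, and the highest UPPL tumour, UPPL1595, was below the BBN median (log2 fold change -2.17, SE 0.60, adjusted p = 0.0166). Timp3, an inhibitor bound to the matrix that also blocks ADAM and ADAMTS enzymes, stood at 146 units at the lowest, 278 at the median and 806 at the highest in UPPL and 227 units at the lowest, 746 at the median and 7208 at the highest in BBN tumours. UPPL1612 was the highest UPPL tumour and the others reached at most 421, while 5 BBN tumours were at 1947 or above (log2 fold change -1.94, SE 0.57, adjusted p = 0.0215). Timp2 ranged over 688 to 2370 units in UPPL and 641 to 4639 in BBN tumours, overlapped widely and did not pass (log2 fold change -0.06, SE 0.32, adjusted p = 0.927). Timp4, the remaining inhibitor, was listed at 0 in all but UPPL1612 among the primary tumours.

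The gelatinase Mmp2, which digests denatured collagen and type IV collagen, was at 0 units at the lowest, 62.2 at the median and 304 at the highest in UPPL and 31.9 units at the lowest, 291 at the median and 2108 at the highest in BBN tumours. It passed as lower in UPPL (log2 fold change -2.84, SE 0.94, adjusted p = 0.0388), but the call was lost when any of 12 of the 20 tumours was left out. The other gelatinase, Mmp9, reached 577 units in UPPL1598 and 796 in BBN969 and did not pass (log2 fold change -1.36, SE 0.93, adjusted p = 0.314). Mmp13, the main interstitial collagenase of the mouse, was at 0 units at the lowest, 28.2 at the median and 122 at the highest in UPPL and 30.8 units at the lowest, 224 at the median and 1521 at the highest in BBN tumours, with UPPL1612 and UPPL1694 listed at 0. In 5 UPPL tumours Mmp13 was under the lowest BBN value (log2 fold change -3.56, SE 0.86, adjusted p = 0.00725). Mmp12, the macrophage metalloelastase, was at 25.0 units at the lowest, 114 at the median and 334 at the highest in UPPL and 139.9 units at the lowest, 771 at the median and 1561 at the highest in BBN tumours, and again 5 UPPL tumours were under the lowest BBN value (log2 fold change -2.79, SE 0.52, adjusted p = 0.00136).

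Among membrane-type enzymes, 1 was higher and 1 lower in UPPL primary tumours. Mmp14, the activator of Mmp2, was at 1001 units at the lowest, 2215 at the median and 3210 at the highest in UPPL and 2115 units at the lowest, 3664 at the median and 8672 at the highest in BBN tumours, and 3 UPPL tumours were below every BBN tumour (log2 fold change -1.03, SE 0.24, adjusted p = 0.00657). Mmp15 was at 1267 units at the lowest, 4852 at the median and 6598 at the highest in UPPL and 408 units at the lowest, 2708 at the median and 3720 at the highest in BBN tumours, with 6 UPPL tumours above every BBN tumour (log2 fold change 1.31, SE 0.43, adjusted p = 0.036). The Mmp15 call was lost when any of 11 of the 20 tumours was left out. Mmp19, which digests basement membrane proteins, averaged 10.3 ± 13.2 units in UPPL, where 3 tumours were listed at 0, and 59.2 ± 49.98 in BBN tumours (SD, n = 9 and 11, adjusted p = 0.014). Mmp23 averaged 5.83 ± 7.98 units in UPPL and 41.2 ± 37.1 in BBN tumours (adjusted p = 0.0234). Of the 12 ADAMTS members tested, 0 passed in limma and 0 in edgeR, while Adamts2, Adamts8 and Adamts9 were lower in UPPL at an unadjusted p under 0.05 (adjusted p = 0.091, 0.058 and 0.0586).

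**Figure D2:**
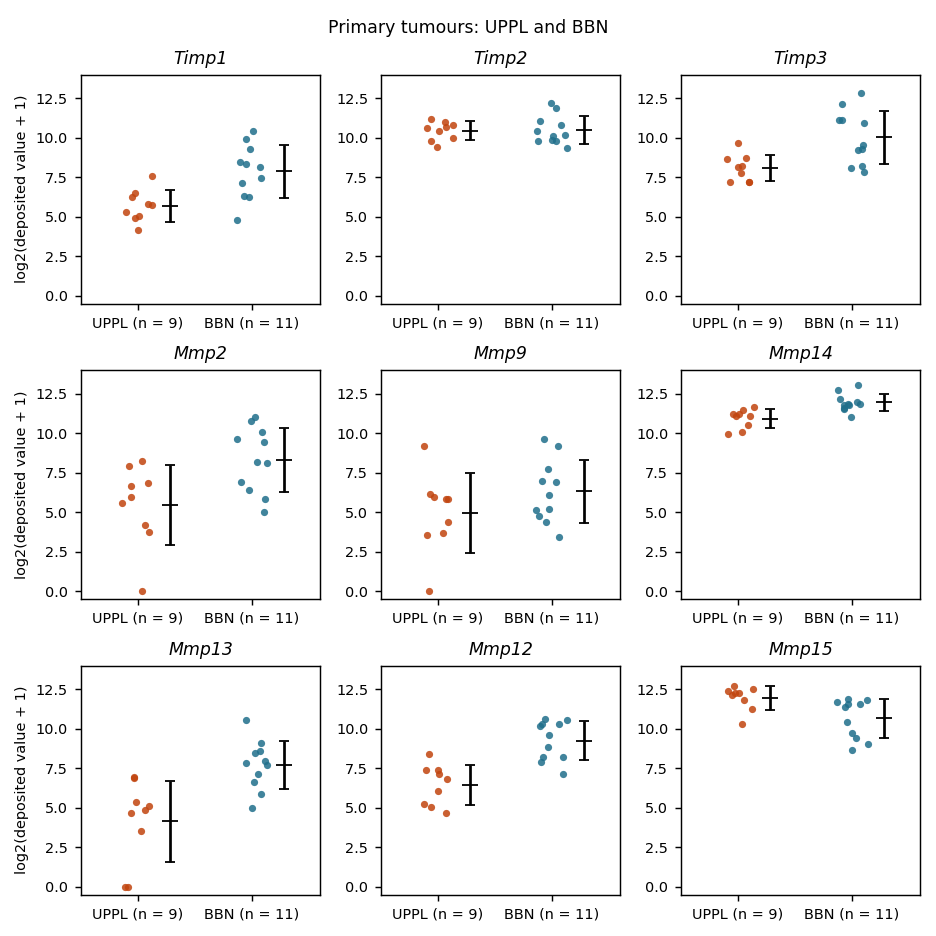
Levels of 9 members in UPPL (left) and BBN (right) primary tumours as log2(deposited value + 1); each point is a tumour, and bars give the mean and SD of the log values. The UPPL points for Mmp13 and Mmp12 lie mostly under the BBN points, Timp2 overlaps throughout, and Mmp15 is the panel where UPPL lies above.

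Other genes that act with these proteases were followed from lists of matrix substrates, pericellular protease partners, ADAM relatives and the AP-1 and ETS factors known at Mmp promoters. Of 14 matrix substrate genes tested in primary tumours, 4 passed in limma and 9 in edgeR, all lower in UPPL. The 4 were Spp1 (log2 fold change -3.20, SE 0.74), Vcan, which encodes the ADAMTS substrate versican (-4.03, SE 0.97), Eln, which encodes the Mmp12 substrate elastin (-4.59, SE 1.45), and Col1a1 (-2.45, SE 0.86). Of 12 ADAM and ADAMTS-like genes, 4 passed, all lower, among them Adam17, the sheddase of tumour necrosis factor (-0.93, SE 0.18). Of 15 protease partners, 2 passed, both lower: the protease inhibitor Serpine2 (-2.40, SE 0.70) and the membrane protease Tmprss4 (-1.65, SE 0.57). Of 12 AP-1 and ETS factors, 1 passed, the ETS factor Etv1, which was lower (-4.16, SE 0.85).

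Cell type markers moved in some lists only. Median sums of neutrophil, endothelial and epithelial markers were 1046, 733 and 320200 units in UPPL and 884, 808 and 285100 in BBN tumours. The macrophage markers Csf1r, Emr1, Cd68, C1qa, C1qb, C1qc, Mrc1 and Msr1 summed to 356 to 1467 units in UPPL and 1092 to 5523 in BBN tumours, and 5 of the 8 passed, all lower in UPPL. The 9 fibroblast markers summed to 379 to 7003 units in UPPL and 400 to 57528 in BBN tumours, and 1 of the 8 tested passed, Col1a1, which was lower. Col1a1, Col1a2, Col3a1, Dcn and Lum were on both this list and the matrix substrate list, so these lists are not separate observations. The 5 smooth muscle markers had a median log2 fold change of -3.97 and summed to 345 to 39367 units in UPPL and 283 to 161751 in BBN tumours, and 2 of the 5, Des and Actg2, passed as lower in limma and 0 in edgeR. No macrophage, fibroblast or smooth muscle marker was at 0 in every tumour of a group. In bulk tumour RNA, fewer cells of a type and less RNA per cell cannot be told apart. Among the passing members, the 5 BBN tumours with the highest fibroblast sums were also the 5 highest for Mmp2, Timp3 and Mmp23. They shared 4 of the 5 highest for Timp1, Mmp14 and Mmp19, 3 for Mmp12, and 2 for Mmp13 and Mmp15. With 5 of 11 tumours taken each time, some sharing arises by chance. The part of these cell types in the calls was not tested.

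**Figure D3:**
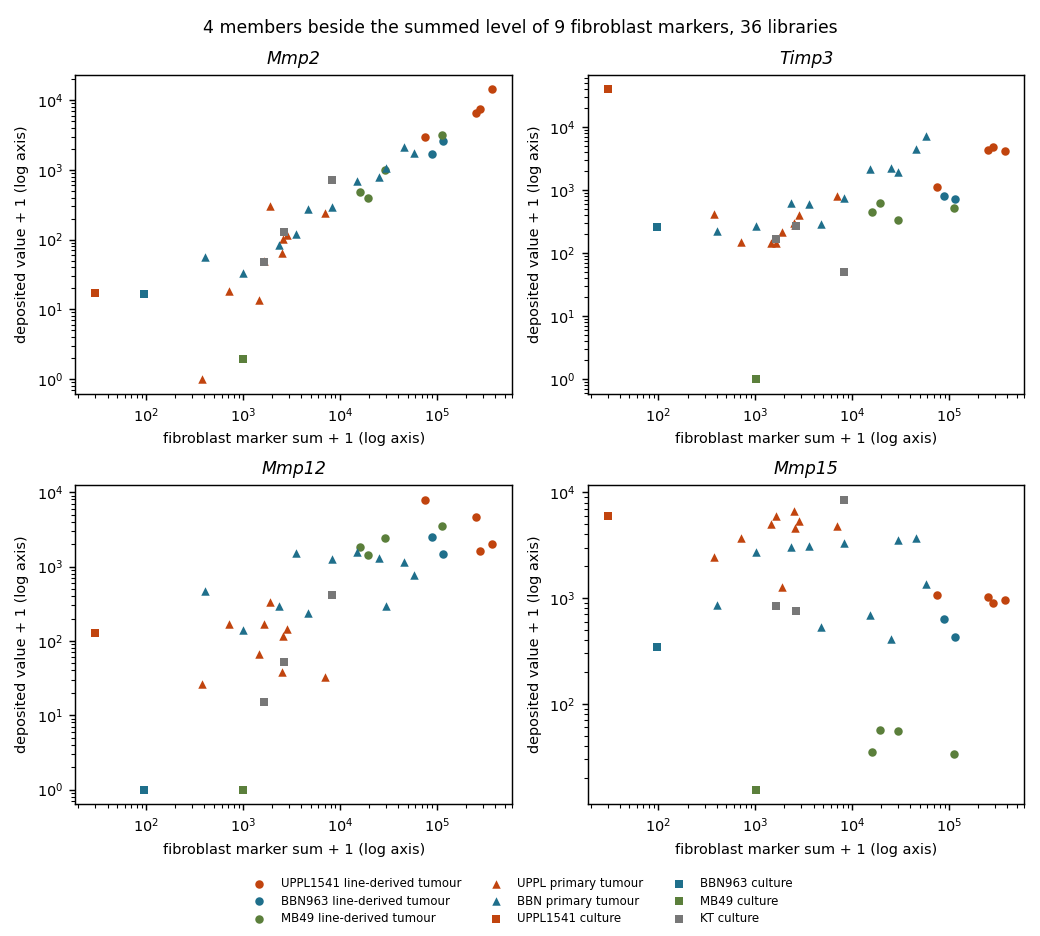
Deposited values of Mmp2, Timp3, Mmp12 and Mmp15 (vertical, log axis) against the summed level of 9 fibroblast markers (horizontal, log axis), 1 point per library; colours give the model and shapes tell line-derived tumours, primary tumours and cultures apart. Mmp2 is highest in the libraries with the highest marker sums, the Timp3 level of the UPPL1541 culture stands at the upper left, and Mmp15 is low in MB49 at any marker sum.

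UPPL1541 tumours grown from the cell line had higher levels than UPPL primary tumours of proteases and inhibitors of every role. Of 40 members tested, 27 passed as higher and 2 as lower, against 20.5 percent higher and 5.98 percent lower of all 15229 genes tested. The median log2 fold change was 3.63 over these members and 0.37 over all genes, and the 2 groups did not overlap in 25 of the 40 members, beside 16.2 percent of all genes tested. Under quantile normalization, which moved the median of all genes to -0.08, 22 were higher and 2 lower, and 48.8 percent of all calls were higher, against 77.4 percent as deposited. Both collagenases tested, both gelatinases, all 3 procollagen N-proteinases and all 3 inhibitors tested rose, with a limit on the procollagen N-proteinase Adamts14 given below.

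Mmp13 was at 12215, 2141, 6060 and 3559 units in UPPL1541 line-derived tumours 1 to 4, against 0 to 122 in UPPL primary tumours. The lowest line-derived tumour was above the highest primary tumour (log2 fold change 8.10, SE 1.06, adjusted p = 4.7e-06). Mmp3, stromelysin 1, which cleaves proteoglycans and can activate other metalloproteases, was at 1860, 334, 2008 and 2134 units against 0 to 25.2, with 5 primary tumours listed at 0 (log2 fold change 8.72, SE 1.46, adjusted p = 9.2e-05). Mmp12 was at 4645, 7965, 1634 and 2015 units against 25.0 to 334 (log2 fold change 5.23, SE 0.67, adjusted p = 3.4e-06). UPPL1541 tumour 2 was the lowest of the 4 in Mmp13 and Mmp3 and the highest in Mmp12. The same tumour had the lowest fibroblast marker sum of the 4, 75317 units against 252467 to 374485 in the other UPPL1541 tumours, and the highest neutrophil marker sum, 30815 units.

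The 3 components of Mmp2 activation were higher together. Mmp2 was at 6545, 2944, 7498 and 14396 units in the line-derived tumours, against 0 to 304 in primary tumours, with no overlap (log2 fold change 7.25, SE 1.16, adjusted p = 5.4e-05). Mmp14 was at 10059, 3939, 9682 and 11762 units against 1001 to 3210 (log2 fold change 2.08, SE 0.33, adjusted p = 6.0e-05). Timp2, which bridges Mmp14 and the Mmp2 precursor, was at 9546, 3771, 9621 and 13549 units against 688 to 2370 (log2 fold change 2.58, SE 0.43, adjusted p = 8.3e-05). All 4 line-derived tumours were above every primary tumour in each of the 3 genes. Mmp9 was at 3496, 1769, 1417 and 1404 units against 0 to 577 (log2 fold change 5.92, SE 1.13, adjusted p = 3.6e-04). Timp1 was at 1129, 445, 992 and 1328 against 16.7 to 192 (log2 fold change 4.12, SE 0.76, adjusted p = 2.4e-04), and Timp3 at 4368, 1143, 4860 and 4204 against 146 to 806 (log2 fold change 3.55, SE 0.72, adjusted p = 6.3e-04), again without overlap.

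Several ADAMTS genes were at or near 0 in UPPL primary tumours and were higher in every line-derived tumour. Adamts18 was at 1140, 678, 468 and 876 units, against 0 in 7 of 9 primary tumours and at most 35.9 (log2 fold change 8.48, SE 1.33, adjusted p = 4.4e-05). Adamts16 was at 456, 106, 274 and 663 units and was listed at 0 in all 9 primary tumours (adjusted p = 1.4e-05). Adamts3, a procollagen N-proteinase, was at 446, 581, 318 and 239 units against 0 in 7 primary tumours and at most 28.6 (log2 fold change 7.66, SE 1.25, adjusted p = 7.2e-05). Its relatives Adamts2 and Adamts14 also passed, with Adamts2 at 1262, 211, 1280 and 1697 units against 0 to 69.4 and Adamts14 at 180.4, 16.9, 81.9 and 71.4 units against 0 in every primary tumour. Among proteoglycan-cleaving members, 3 of 7 tested rose, namely Adamts4, Adamts5 and Adamts9, while Adamts1 at 3299, 2467, 2630 and 2394 units lay within the primary range of 351 to 3601 and did not pass.

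Mmp15 and Mmp28 were the members that fell. Mmp15 was at 1019, 1076, 906 and 950.3 units in the line-derived tumours, against 1267 to 6598 in primary tumours, and all 4 were below every primary tumour (log2 fold change -2.02, SE 0.52, adjusted p = 0.00531). Mmp28, or epilysin, an enzyme of epithelia, was at 174, 145, 163 and 201 units against 272 to 634 (log2 fold change -1.16, SE 0.33, adjusted p = 0.0109). Mmp7, also an epithelial enzyme, was at 137, 326, 811 and 231 units against 0 to 3500 and did not pass (adjusted p = 0.746). Both calls kept their direction and side of the threshold under every alternative run.

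Of 16 matrix substrate genes tested, 14 passed, all higher in UPPL1541 line-derived than in UPPL primary tumours. Among them were the Mmp12 substrate Eln (log2 fold change 10.25, SE 1.77), Spp1 (7.14, SE 0.91), Fbn1, which encodes fibrillin (6.78, SE 0.88), and Acan, which encodes aggrecan (7.11, SE 1.00). Of 16 protease partners, 4 passed, all higher, with Thbs2, whose product binds Mmp2, at 6.19, SE 0.76. Of 12 AP-1 and ETS factors, 0 passed in either direction in limma, against 1 higher and 2 lower at an unadjusted p under 0.05 and 0 higher and 4 lower in edgeR. All 9 fibroblast, all 8 macrophage and all 4 mast cell markers were higher, and the fibroblast sum was 75317 to 374485 units in line-derived tumours against 379 to 7003 in primary tumours. The mast cell markers were Cpa3, Cma1, Mcpt4 and Kit. In the UPPL1541 culture Kit was at 1058 units and the others at 0, so Kit does not mark mast cells alone in this line. Macrophage markers summed to 6121 to 14034 units against 356 to 1467. The part of these cells in the changes above was not tested.

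**Figure D4:**
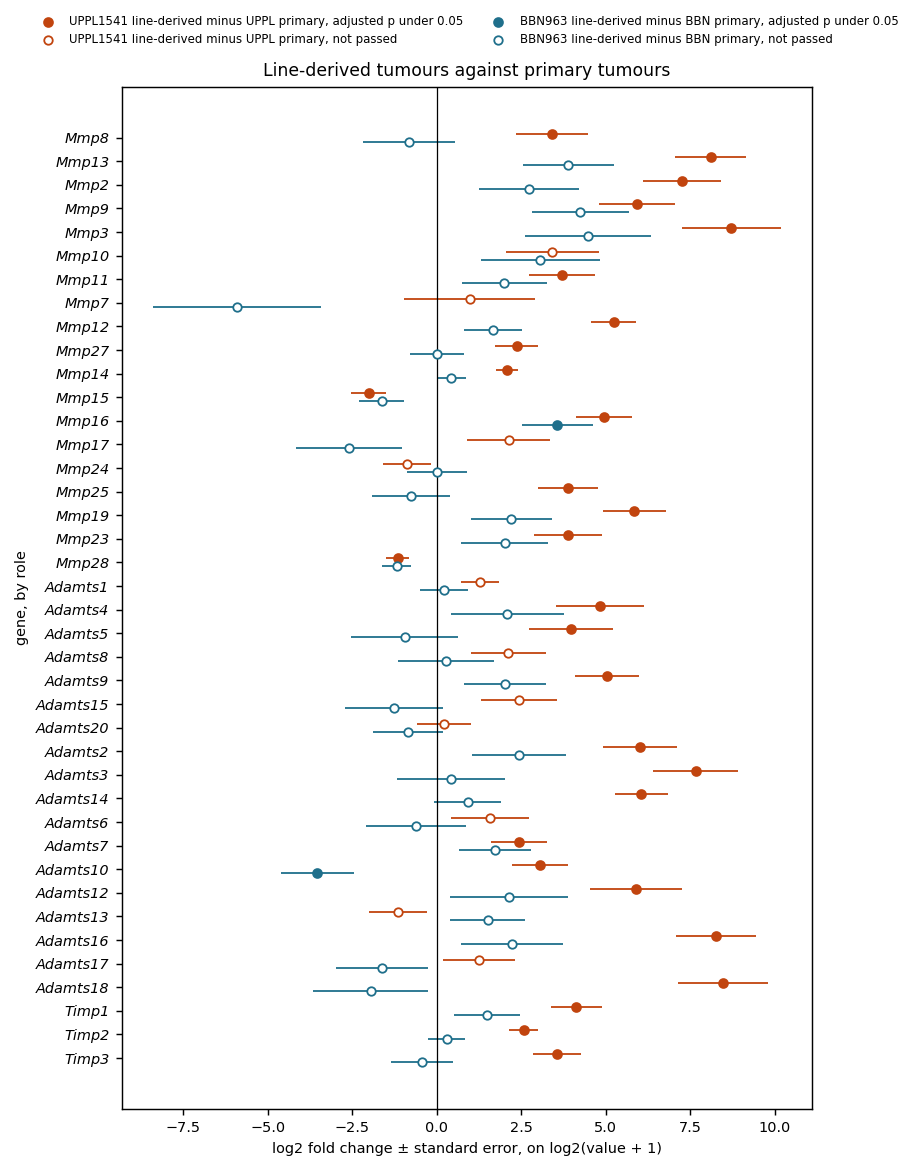
Log2 fold change with standard error of the 40 members tested, line-derived against primary tumours, on log2(value + 1): UPPL1541 against UPPL (red) and BBN963 against BBN (blue), with filled points where the adjusted p was under 0.05. Most red points are filled and right of 0, Mmp15 and Mmp28 are left of 0 in both models, and 2 blue points are filled.

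BBN963 line-derived tumours differed from BBN primary tumours in few members. Of 40 tested, 1 passed as higher and 1 as lower, or 2.5 percent each way, beside 2.09 percent higher and 5.67 percent lower, together 7.76 percent, of all genes. At an unadjusted p under 0.05 there were 4 in each direction, and the BBN963 group holds 2 tumours. The groups did not overlap in 4 members, beside 12.8 percent of all genes. Mmp16, a membrane-type enzyme, was at 30.5 and 11.0 units in the line-derived tumours against 0 to 10.2 in primary tumours, with no overlap (log2 fold change 3.57, SE 1.06, adjusted p = 0.0371). Adamts10, which acts on fibrillin microfibrils, was at 0 and 9.8 units against 14.6 to 127 (log2 fold change -3.54, SE 1.08, adjusted p = 0.042). The 0 is that of BBN963 tumour 1, which had the highest low-value step of all libraries, 19 reads. Without BBN963 tumour 1 neither call remained, with the lone tumour assumed to vary like the other groups. Leaving out BBN963 tumour 2, UPPL1541 tumour 3 or 4, or the primary tumour BBN964, BBN965, BBN974, BBN975 or BBN976 left 1 call, and leaving out the primary tumour BBN963 gave 4. In edgeR 1 member passed, Mmp13, which was higher. Of all calls, 26.9 percent were higher as deposited and 42.9 percent in edgeR. Of the cell type markers, 3 of 4 mast cell, 2 of 5 skeletal muscle and 1 of 9 fibroblast markers were higher in BBN963 line-derived tumours, and their part in these values was not tested.

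Mmp13 was at 2415 and 4033 units in the 2 BBN963 tumours, against 30.8 to 1521 in BBN primary tumours, and Mmp9 at 1444 and 1589 against 9.91 to 796. Neither gene overlapped between the groups, and neither passed on log2(value + 1) (log2 fold change 3.89, SE 1.36 and 4.25, SE 1.45, adjusted p = 0.0766 and 0.0696). Mmp9 did pass with a pseudocount of 10, under quantile normalization, and when the primary tumour BBN963, BBN969, UPPL1595 or UPPL1598 was left out of the fit (adjusted p = 0.0274 to 0.0462). Mmp2 was at 2600 and 1712 units against 31.9 to 2108. Mmp14, its activator, was at 6329 and 4472 against 2115 to 8672. Timp1 was at 368 and 1145 units against 26.9 to 1373, Timp2 at 2085 and 1485 against 641 to 4639 and Timp3 at 714 and 816 against 227 to 7208. Apart from Mmp2 in BBN963 tumour 1, these values lay within the primary range, and none of the 5 genes passed (adjusted p = 0.272, 0.586, 0.374, 0.79 and 0.809).

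The difference between the 2 steps, UPPL1541 over UPPL minus BBN963 over BBN, was tested as an interaction in the same fit. Of 40 members, 9 passed, all with a more positive step in UPPL, against 8.16 percent higher and 1.06 percent lower, together 9.22 percent, of all genes. The 9 were Adamts3, Adamts10, Adamts14, Adamts16, Adamts18, Mmp12, Mmp25, Timp2 and Timp3, where Adamts14 again met the filter on low values through UPPL1541 tumours. The log2 fold change of Timp2 was 2.58 in UPPL and 0.29 in BBN (difference 2.29, SE 0.69, adjusted p = 0.0379). The log2 fold change of Timp3 was 3.55 in UPPL and -0.45 in BBN (difference 3.99, SE 1.16, adjusted p = 0.0312). The log2 fold change of Mmp12 was 5.23 in UPPL and 1.65 in BBN (difference 3.58, SE 1.09, adjusted p = 0.0377). For Mmp2, Mmp13 and Mmp14 the difference did not pass (adjusted p = 0.126, 0.121 and 0.0539). These counts were fragile: 1 passed without BBN963 tumour 1, 3 without UPPL1541 tumour 1, 5 without UPPL1541 tumour 3 or 4, and 0 in edgeR. Quantile normalization, which moved the median difference of all genes from 0.55 to 0.00, left 3, and 53.4 percent of all calls were then higher, against 88.5 percent as deposited.

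Among line-derived tumours, UPPL1541 was higher than MB49 in both gelatinases, in 3 of 5 membrane-type enzymes tested (Mmp15, Mmp16 and Mmp17) and in several ADAMTS genes, and lower in Adamts7, Adamts8 and Timp1. Of 37 members tested, 15 passed as higher in UPPL1541 and 3 as lower, against 27.3 percent higher and 22.6 percent lower, together 49.9 percent, of all 14604 genes. The median log2 fold change was 0.72 over these members and 0.05 over all genes, and the groups did not overlap in 16 of the 37 members, beside 47.8 percent of all genes. Adamts18 and Mmp7 were listed at 0 in all 4 MB49 tumours, against 1140, 678, 468 and 876 units for Adamts18 and 137, 326, 811 and 231 units for Mmp7 in UPPL1541 tumours (adjusted p = 8.1e-08 and 1.5e-06). Both were also at 0 in the BBN963 tumours, so they met the filter on low values through UPPL1541 alone. The MB49 and BBN963 tumours added no spread to the fit of these genes, so their p-values may overstate certainty. Mmp16 and Adamts17 were also listed at 0 in every MB49 tumour. Outside UPPL1541, Mmp17 stayed under 10 units, and Adamts17 reached 10 units in BBN963 tumour 2 only. Mmp17 and Adamts17 therefore also met the filter, in this fit of the 3 lines, through UPPL1541 alone. Mmp15 was at 1019, 1076, 906 and 950.3 units in UPPL1541 and 32.3, 55.0, 34.1 and 54.8 in MB49 tumours (log2 fold change 4.50, SE 0.25, adjusted p = 9.8e-08).

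Timp3 was at 4368, 1143, 4860 and 4204 units in UPPL1541 tumours, against 519, 618, 454 and 334 in MB49 tumours (log2 fold change 2.76, SE 0.40, adjusted p = 1.8e-04). Adamts15, a versican-cleaving enzyme, was at 670.3, 713, 791 and 898 units against 99.9, 60.6, 72.5 and 17.5 (log2 fold change 3.83, SE 0.61, adjusted p = 3.7e-04). Adamts3 was at 446, 581, 318 and 239 against 12.5, 0, 5.33 and 5.83 and Adamts16 at 456, 106, 274 and 663 against 39.5, 1.12, 3.2 and 0, where the UPPL1541 tumours were above all MB49 tumours (adjusted p = 8.1e-04 and 8.0e-04). Mmp2 was at 6545, 2944, 7498 and 14396 units against 3165, 396, 475 and 979, where MB49 tumour 1 reached above the lowest UPPL1541 tumour (log2 fold change 2.95, SE 0.62, adjusted p = 0.00221). MB49 tumour 1 also had the highest Mmp3 and Mmp13 of the MB49 tumours, 6963 and 7277 units, and its fibroblast marker sum was 113837 units, against 16225 to 29513 in the other MB49 tumours.

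Among the members that were lower in UPPL1541, Adamts7, which cleaves cartilage oligomeric matrix protein, was at 272, 56.1, 204 and 272 units against 649, 790.1, 535 and 505 (log2 fold change -1.83, SE 0.46, adjusted p = 0.00648). Adamts8 was at 33.5, 0, 26.1 and 33.3 units against 245, 58.4, 134 and 249 (adjusted p = 0.018), and without MB49 tumour 4 it no longer passed. Timp1 was at 1129, 445, 992 and 1328 units against 2429, 1851, 1706 and 1465 (adjusted p = 0.0457), and Mmp9 at 3496, 1769, 1417 and 1404 against 1237, 1642, 694 and 826 passed as higher (adjusted p = 0.0462). The Timp1 and Mmp9 calls were each lost when any of 7 of the 10 tumours was left out. Timp2 at 9546, 3771, 9621 and 13549 units against 11579, 13380, 10907 and 11615, and Mmp14 at 10059, 3939, 9682 and 11762 against 7822, 4590, 4284 and 3958, did not pass (adjusted p = 0.2 and 0.0909).

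Cell type markers of these tumours went both ways. All 8 macrophage markers were lower in UPPL1541 than in MB49 tumours, with sums of 6121 to 14034 and 21316 to 30976 units, while 6 of 9 fibroblast markers were higher. All 5 skeletal muscle markers were lower in UPPL1541 (median log2 fold change -7.82), with sums of 0 to 522 units against 3827 to 12957 in MB49 tumours. Of 4 mast cell markers, Cpa3, Cma1 and Mcpt4 were lower and Kit was higher, with sums of 239 to 481 units against 431 to 1762. Of these markers, only Kit was above 0 in the UPPL1541 culture. Of the matrix substrates, 9 of 16 were higher and 4 lower, with Acan listed at 0 in all MB49 tumours and Vcan lower in UPPL1541 (log2 fold change -4.53, SE 0.67). Of the AP-1 and ETS factors, 4 of 12 were higher and 4 lower, with Fosl2 at 1.85, SE 0.13 and Fosl1, a Fos relative often high in invasive cells, at -4.74, SE 0.37. Of 16 protease partners, 9 were higher and 3 lower, with St14, which encodes the epithelial membrane protease matriptase, at 6.04, SE 0.37 and Plaur, the urokinase receptor, at -2.15, SE 0.37. The part of cell makeup in the Mmp, Adamts and Timp calls was not tested.

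Against BBN963 tumours, UPPL1541 tumours were higher in the inhibitors Timp2 and Timp3, in Mmp7 and Mmp15 and in several ADAMTS genes. The tumours of each line enter several comparisons, so their counts are not independent. Of 37 members, 14 passed, all higher, against 21.4 percent higher and 7.37 percent lower of all genes. At an unadjusted p under 0.05 there were 17, again all higher, and edgeR passed 8. The groups did not overlap in 14 members, beside 45.9 percent of all genes. Timp2 was at 9546, 3771, 9621 and 13549 units in UPPL1541 and 2085 and 1485 in BBN963 tumours (log2 fold change 2.23, SE 0.39, adjusted p = 0.00203), and Timp3 at 4368, 1143, 4860 and 4204 against 714 and 816 (log2 fold change 2.06, SE 0.49, adjusted p = 0.0103). Neither inhibitor overlapped, and the Timp3 call was lost without BBN963 tumour 1. Adamts10 was at 252, 109.5, 173 and 187 units against 0 and 9.8, and Adamts15 at 670.3, 713, 791 and 898 against 15.2 and 104 (adjusted p = 7.7e-04 and 0.00239). Adamts18 and Mmp7 were listed at 0 in both BBN963 tumours as in MB49, so their calls here have the limit given above. Adamts3 was at 0 and 47.8 units in BBN963 tumours (adjusted p = 0.0105), a call that was lost without BBN963 tumour 1.

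The same comparison left Mmp2, Mmp9, Mmp14 and Timp1 unpassed. Mmp2 was at 2600 and 1712 units in BBN963 tumours, below all 4 UPPL1541 tumours (log2 fold change 1.68, SE 0.76, adjusted p = 0.119). Mmp9, Mmp14 and Timp1 overlapped (adjusted p = 0.595, 0.272 and 0.48). The number of calls depended on single libraries: 7 without BBN963 tumour 1, and 8 without UPPL1541 tumour 1 or without tumour 3. Under quantile normalization 8 passed, all higher. The median log2 fold change of all genes was then -0.03, against 0.32 as scaled by the authors, and 49.8 percent of all calls were higher, against 74.4 percent. Cell type markers moved in this comparison as well: 4 of 9 fibroblast markers passed as higher in UPPL1541 tumours, with sums of 75317 to 374485 units against 88212 and 116615 in BBN963, as did 3 of 8 macrophage and 2 of 5 neutrophil markers. Neutrophil markers summed to 7466 to 30815 units against 3205 and 4345. Of 4 mast cell markers, 1 was higher and 2 were lower, and 8 of 16 matrix substrates were higher and 0 lower. The part of these cells in the calls was not tested.

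BBN963 tumours were higher than MB49 tumours in Mmp15, Mmp16 and Adamts1, and lower in Timp1, Timp2 and 6 proteases. Of 37 members, 3 passed as higher and 8 as lower, against 15.8 percent higher and 26.1 percent lower of all genes. The groups did not overlap in 18 members, beside 53.5 percent of all genes. Of all calls, 37.7 percent were higher as deposited and 50.8 percent in edgeR. Mmp15 was at 431 and 629 units in BBN963 and 32.3, 55.0, 34.1 and 54.8 in MB49 tumours (log2 fold change 3.58, SE 0.31, adjusted p = 4.9e-06). Adamts1, an enzyme that cleaves versican and aggrecan, was at 2688 and 1363 units against 685, 787, 772 and 852 (log2 fold change 1.31, SE 0.24, adjusted p = 0.00115), and Mmp16 was at 30.5 and 11.0 units against 0 in all MB49 tumours. Timp2 was at 2085 and 1485 units against 11579, 13380, 10907 and 11615, with no overlap (log2 fold change -2.75, SE 0.39, adjusted p = 2.0e-04). Adamts14 was at 0 and 15.9 units against 314, 242, 346 and 209, and Adamts7 at 99.0 and 61.3 against 649, 790.1, 535 and 505 (adjusted p = 9.1e-04 and 0.00154). Mmp8, the neutrophil collagenase, was at 0 and 1.23 units against 26.0, 65.1, 74.6 and 382 (adjusted p = 0.00578), a call that was lost without BBN963 tumour 1. Of 5 neutrophil markers tested, 3 were lower in BBN963 tumours. Yet the neutrophil marker sums of the BBN963 tumours, 4345 and 3205 units, lay within the MB49 range of 1369 to 9098. The part of neutrophils in the Mmp8 values was not tested.

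Timp1 was at 368 and 1145 units in BBN963 and 2429, 1851, 1706 and 1465 in MB49 tumours (log2 fold change -1.49, SE 0.47, adjusted p = 0.0251), and this call was lost without BBN963 tumour 1, without MB49 tumour 1 and in edgeR. Mmp25, a membrane-anchored enzyme of leukocytes, with Adamts10 and Mmp27 completed the 8 that were lower. All 8 macrophage markers were lower in BBN963 tumours too, with sums of 6022 and 7951 units against 21316 to 30976 in MB49. Mmp2, Mmp9, Mmp14 and Timp3 did not pass (adjusted p = 0.202, 0.291, 0.871 and 0.276).

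Averaged over the 3 lines, tumours were higher than cultures in both collagenases and both gelatinases tested and in 3 of 6 stromelysins and related enzymes. This did not hold line by line. The collagenase Mmp8 was at 0 and 1.23 units in BBN963 tumours, against 0 in the BBN963 culture. With line in the model and 1 culture per line, 17 of 37 members passed, all higher in tumours, against 20.1 percent higher and 8.99 percent lower of all 14321 genes. The median log2 fold change was 2.33 over these members and 0.13 over all genes. All tumours lay on one side of all cultures in 8 members, beside 9.48 percent of all genes. The filter on low values had to be met in 3 libraries. A gene seen only in cultures thus had to meet it in all 3 cultures, whereas any 3 tumours were enough. The filter therefore admits genes higher in tumours more easily, and Mmp3, Mmp12 and Mmp23 did not meet it in every culture. With no filter, 15 of 42 members passed, again all higher in tumours. The difference shared by the 3 lines was tested, since the culture of a line has no replicate. Leaving out each library in turn gave 12 to 18 calls, and quantile normalization gave 8. Of all calls, 69.1 percent were higher as deposited and 45.4 percent under quantile normalization.

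Mmp2 was at 396 units or above in the line-derived tumours, against 15.9 in the UPPL1541 culture, 15.8 in BBN963 and 0.964 in MB49 (log2 fold change 8.21, SE 0.59, adjusted p = 4.0e-07). Mmp13 was at 2141 units or above in tumours, against 133, 63.3 and 8.67 in these cultures (log2 fold change 6.54, SE 0.61, adjusted p = 5.0e-06). Mmp12 was at 1430 to 7965 units in tumours, against 128 in the UPPL1541 culture and 0 in the other 2 cultures (log2 fold change 8.77, SE 0.93, adjusted p = 1.6e-05). Mmp3 was at 306 to 6963 units in tumours, against 3.73, 20.7 and 2.89 in cultures (log2 fold change 7.25, SE 0.85, adjusted p = 3.9e-05). In all 4 genes every tumour was above every culture. Adamts2, Adamts12, Mmp19 and Mmp23 also passed without overlap (log2 fold change 6.84, SE 0.75, 5.49, SE 1.08, 5.07, SE 0.74 and 4.17, SE 0.83).

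Mmp9 was at 694 to 3496 units in tumours, against 967 in the MB49 culture but 6.54 and 46.2 in the UPPL1541 and BBN963 cultures. It passed with limma (adjusted p = 0.00514) and not with edgeR or without the UPPL1541 culture. Mmp14 was at 3939 to 11762 units in tumours, against 5863, 3592 and 3101 in the UPPL1541, BBN963 and MB49 cultures, and did not pass (adjusted p = 0.157). Timp1 at 561, 533 and 1133 units and Timp2 at 10328, 5905 and 7061 units in cultures did not pass either (adjusted p = 0.235 and 0.519). Of the 3 inhibitors tested, 0 passed in limma, 0 at an unadjusted p under 0.05 and 0 in edgeR. Timp2 differed in direction by line: it was 2085 and 1485 units in the BBN963 tumours, below the BBN963 culture, and 10907 to 13380 in MB49 tumours, above the MB49 culture, and this was not tested.

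Timp3 had the widest spread of any member among cultures. The tumours grown from the UPPL1541 line held 1143 to 4860 units, against 40509 in the UPPL1541 culture, its highest value in the series. BBN963 tumours held 714 and 816 units, against 261 in their culture, and MB49 tumours held 334 to 618, against 0 in the MB49 culture. Across lines the difference did not pass, and its direction rested on single cultures: the log2 fold change was -1.30 without the MB49 culture (adjusted p = 0.28) and -1.21 in edgeR, while without the UPPL1541 culture it was 5.55 and passed (adjusted p = 0.00458). Mmp15 was at 6026, 341 and 14.5 units in the UPPL1541, BBN963 and MB49 cultures, in the same order as in the tumours of the lines. Adamts18 was at 468 to 1140 units in UPPL1541 tumours, against 6.54 in the UPPL1541 culture.

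The 3 cultures were low in stromal markers, of which some were above 0. Fibroblast markers summed to 16225 to 374485 units in the tumours, against 28.9 in the UPPL1541 culture, 94.9 in BBN963 and 1006 in MB49, with Lum and Thy1 at 0 in each culture. Of the 9 fibroblast markers 4, 5 and 5 were at 0 in the UPPL1541, BBN963 and MB49 cultures, as were 2, 4 and 2 of 5 endothelial and 0, 3 and 5 of 5 smooth muscle markers. Emr1, C1qa, C1qb, C1qc and Msr1 were at 0 in each, and Csf3r, Retnlg, Camp and Ngp of the neutrophil list as well. All 9 fibroblast and all 8 macrophage markers passed as higher in tumours, and the part of these cells in the changes was not tested. Of 15 matrix substrates 9 passed, all higher, with Col3a1 at a log2 fold change of 14.43, SE 0.53. Of 12 AP-1 and ETS factors, Fos was higher (2.84, SE 0.40) and Ets1 lower (-0.67, SE 0.23).

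The KT cultures have no tumours in the series, so their levels are given without a test. KT1044 differed from KT1970 and KT1975 in several members: Mmp13 was at 2394 units there, against 15.4 in KT1970 and 12.4 in KT1975. Mmp2 was at 706 units in KT1044, against 46.2 and 126, and Mmp15 at 8534 against 844 and 758. Adamts15 was at 1286 units in KT1044, its highest value in the series, against 81.4 and 68.4. The fibroblast marker sum of KT1044 was 8292 units, against 1647 and 2659 in the others. Adamts1 peaked in KT1970 at 8672 units, and Adamts14 was at 249.7 and 268 units in KT1970 and KT1975, against 18.9 in KT1044. Timp2 was at 10445, 9438 and 11114 units in KT1044, KT1970 and KT1975, and Timp3 was at 49.96, 166 and 272.

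**Figure D5:**
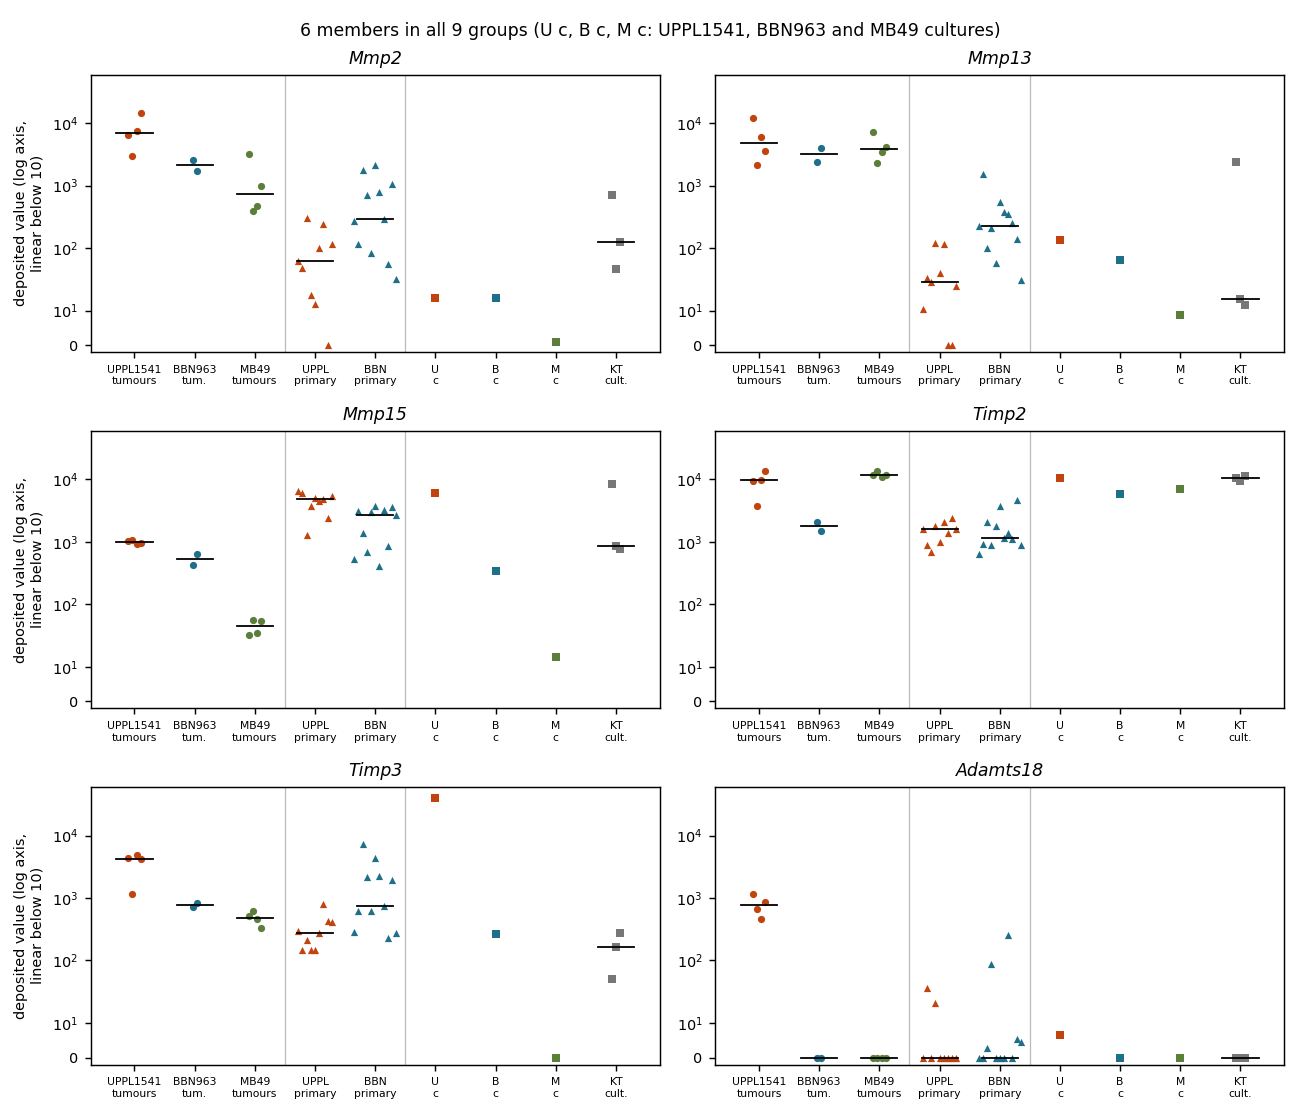
Deposited values of Mmp2, Mmp13, Mmp15, Timp2, Timp3 and Adamts18 in the 9 groups (log axis, linear below 10), 1 point per library, with a line at the median where a group holds more than 1; U c, B c and M c are the UPPL1541, BBN963 and MB49 cultures. Mmp2 and Mmp13 are high in line-derived tumours and low in the cultures of the same lines, Mmp15 is lowest in MB49, and Timp3 of the UPPL1541 culture lies above every tumour.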

How the data were processed

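RNA was extracted from mouse bladder tumours and cultured lines and sequenced from poly(A) libraries made with a stranded kit, per the labels' protocols. The deposited signal is an RSEM gene estimate that the authors scaled to a common upper quartile, as the values show. Build mm9, Picard 1.64 and SAMtools stand in the submitters' processing notes. One floxed allele is not reported here.

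Tests used limma 3.58.1 with a variance trend (R 4.3.3) on log2(value + 1). Genes had to reach 10 units in a minimum number of libraries set by the smallest group (9 for primary tumours, 2 for line-derived tumours and for the fit of line-derived with primary tumours, 3 for tumours with cultures). P-values were adjusted by Benjamini-Hochberg over all genes tested, at 0.05. Reads recovered from the signal steps were whole for 92.0 to 96.3 percent of values (tolerance 0.02) and went to edgeR 4.0.16 as an alternative. The fits were tested on simulated data. Members, lists and tests were chosen with earlier results of these data known. Named in each comparison were the Timp genes, Mmp2, Mmp9, Mmp14 and up to 6 passing members each way by fold change at a mean of 100 units or more. Other genes given by value were picked after their values were seen. Alternatives were a pseudocount of 10, no filter, quantile and median-of-ratios scaling, a replicate block, and leaving out each library, the tumours with high low-value steps, or the lines' own primary tumours. Promoter letters and gene order came from RefSeq (GRCm38.p6), exon overlaps from GENCODE M21, and no coordinate was mixed with mm9.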

Additional observations from a re-analysis of the deposited data

Results flagged for a closer look

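In 5 of 68 member-by-group sets of 4 to 10 libraries, 1 library stood apart from the rest by Dixon's gap, and chance gives about 1 in 20. UPPL1541 tumour 2 was the library in 4 of them, as the low one each time: Adamts2 was at 211 units, Mmp3 at 334, Timp3 at 1143 and Adamts8 at 0. This tumour also had the lowest fibroblast marker sum of its group, 75317 units, and the part of that in these values was not tested. The other was UPPL1597 among UPPL primary tumours, where Adamts10 was listed at 0.

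The step between line-derived and primary tumours differed between UPPL and BBN in 9 members by the interaction term, on log2(value + 1). The differences were 10.43 for Adamts18, 7.25 for Adamts3, 6.60 for Adamts10, 6.04 for Adamts16 and 5.14 for Adamts14. They were 4.64 for Mmp25, 3.99 for Timp3, 3.58 for Mmp12 and 2.29 for Timp2. The Adamts18 value depends on the pseudocount, since both BBN963 tumours were listed at 0, and so do those of Adamts16 and Adamts14, which were listed at 0 in all 9 UPPL primary tumours. With a pseudocount of 10 the difference was 6.69 for Adamts18 and 3.90 for Adamts16. The Adamts16 call was lost under 6 of 7 other settings, and when any of 18 of the 26 tumours was left out. In edgeR 0 of the 9 passed, and Adamts18 was the one that passed whichever library was left out.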

How the results depend on the processing

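Counts of members passing were 9 for UPPL against BBN primary tumours, 18, 14 and 11 for UPPL1541 against MB49, UPPL1541 against BBN963 and BBN963 against MB49, 29 and 2 for line-derived against primary tumours in UPPL and BBN, 17 for tumours against cultures and 9 for the UPPL minus BBN difference. Without the 5 tumours with high low-value steps they were 4 for primary tumours, 8 for UPPL1541 against BBN963, 0 for BBN963 against BBN primary and 1 for the difference. Quantile normalization gave 8 for UPPL1541 against BBN963, 8 for tumours against cultures and 3 for the difference, median-of-ratios scaling gave 4 for the difference, and edgeR gave 8, 1 and 0 for UPPL1541 against BBN963, BBN963 against BBN primary and the difference. With no filter 1 passed for BBN963 against BBN primary, and without the lines' own primary tumours 4 passed. Leaving out each library gave 7 to 10 for primary tumours, 15 to 18, 7 to 19 and 9 to 15 among the lines in the order above, 26 to 31 in UPPL, 0 to 4 in BBN, 12 to 18 for cultures and 1 to 10 for the difference. The cause of these shifts was not tested. Deviations of tumours with the same number showed little correlation (-0.09 to 0.07 over 8 pairs), and the labels do not say what the numbers mark. These correlations cannot exclude a shared mouse, batch or day. With the tumour number as a replicate block 17, 7 and 11 passed among the lines. For cultures, which have no tumour number, the block fit set tumours numbered 4 against cultures, and BBN963 has no tumour 4. This differs from the main comparison, so its 6 calls, without Adamts12 and Mmp9 (adjusted p = 0.0506 and 0.185), are not a check of it. Block values for cultures below share this limit. Among all calls, the share that was higher ran from 30.9 percent as deposited to 55.1 percent in edgeR for primary tumours, from 77.4 to 48.8 percent under quantile normalization for UPPL1541 against UPPL primary, and from 88.5 to 47.1 percent in edgeR for the difference. Of 2056 alternative values for named genes, 1901 kept their direction and side of the threshold, 120 no longer passed, 20 newly passed and 15 changed sign, none of which passed before or after. Those were log2 fold changes of Timp2 in primary tumours (0.064 with median-of-ratios scaling, -0.17 to 0.11 leaving out each library), Timp1 in UPPL1541 against BBN963 (-0.34 without high low-value steps, -0.34 to 1.29), Mmp14 in BBN963 against MB49 (-0.15 to 0.35), Timp2 in BBN963 against BBN primary (-0.072 without high low-value steps), and, for tumours against cultures, Timp2 (0.16 with the replicate block, -0.97 to 0.21) and Timp3 (-1.21 in edgeR, -1.30 to 5.55). A lone BBN963 tumour was assumed to vary like the other groups. Depth limits low values: 0 allows up to 3 reads by counting error alone, and low tumour values are less certain than that.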
